A study of Saccharomyces cerevisiae with 161 samples.

Results

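Red1-only peaks are stretches of the yeast genome where Red1 was called as enriched and no Hop1 peak shared any base pair, and Hop1-only peaks are the reverse. The members were chosen by the positions of called peaks in the deposited wild-type lists, whatever their overlap with Rec8. Of 1571 Red1 peaks, 143 (9.10%) were Red1-only, and of 1514 Hop1 peaks, 73 (4.82%) were Hop1-only, so that 216 of 3085 peaks of both proteins were members. The remaining 1428 Red1 peaks and 1441 Hop1 peaks are called shared peaks here. Because the position and the strength of a call come from the same ChIP-seq experiment that chose the members, width, fold enrichment and q-value are given below as descriptions, without a test.

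In meiotic prophase, chromosomes fold into loops that are anchored to a protein axis. Rec8 is the meiosis-specific kleisin subunit of cohesin and forms the base of this axis in budding yeast. Red1 binds Rec8 and forms filaments, and Hop1, a HORMA-domain protein, binds Red1. Hop1 and Red1 together direct the formation and repair of the DNA breaks that start meiotic recombination. Both are usually found at the same sites.

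The measurements were chromatin immunoprecipitation followed by sequencing (ChIP-seq) in wild-type SK1 yeast, collected 3 h after transfer to sporulation medium at 30°C. The lists combined 4 libraries for Red1 (anti-Red1), 4 for Hop1 (anti-Hop1) and 2 for Rec8 (anti-HA), each read against input DNA. In 1 of the Red1 and 1 of the Hop1 libraries the strain also carried SMC4-PK9, a tagged condensin subunit, and these libraries had the same input sample. The other 3 Red1 libraries came from strain H119, whereas the other Hop1 libraries came from H119 and H574, and the Rec8 libraries from H4471, so that the lists rest on partly different strains. Each protein had 1 pooled list. There was therefore no replicate error for any value below, no test over replicates was possible, and differences are described beside the whole list. Read numbers are not part of the lists, and the sequencing depth is therefore unknown. A missing peak is a missing call, since signal below the q-value cutoff is not in the lists, and the amount of Hop1 at Red1-only peaks or of Red1 at Hop1-only peaks was not analysed here. Positions refer to the SK1 genome assembly used by the authors. Gene annotation was not used here, because the reference at hand is that of S288C.

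No member lay within 500 bp of a peak of the other protein. The smallest distance between a Red1-only peak and a Hop1 peak was 506 bp, and the smallest overlap of a shared peak was 114 bp. No peak of either list had its nearest peak of the other protein between these values, although 13 shared peaks of each list shared fewer than 200 bp. However, peaks within a list also never lay closer than 804 bp (Red1) or 801 bp (Hop1). For all but 7 Red1-only and 7 Hop1-only peaks, the nearest peak of the other protein was a shared one. Such a shared peak overlaps a peak of the member's own list, so that the empty range is not shown to be particular to members. The 506 bp separated a Red1-only peak on chromosome VII from 832339 to 832865 from a Hop1-only peak at 831260 to 831832. The next nearest Red1-only peaks lay on chromosome IV from 444506 to 444901, at 534 bp from a Hop1-only peak at 445436 to 447161, and on chromosome VII from 888689 to 889137, at 564 bp. The third nearest Hop1-only peak, on chromosome XV from 406421 to 408132, was 761 bp from a Red1-only peak. These closest neighbours were thus mostly members facing members.

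Just outside the limit were 3 pairs that narrowly overlapped. On chromosome VII, a Red1 peak from 632476 to 632835 and a Hop1 peak from 632722 to 633463 shared 114 bp. The pair on chromosome XIV also shared 114 bp, with Red1 from 628995 to 629421 and Hop1 from 629308 to 629507. The pair on chromosome XV shared 136 bp, with Red1 from 92267 to 92854 and Hop1 from 91839 to 92402. In fold enrichment these resembled the members, with values between 1.12 and 1.25 for Red1 and between 1.13 and 1.21 for Hop1. The Hop1 peak on chromosome VII had a −log10 q-value of 21.3, however, compared with a median of 5.75 for Hop1-only peaks. In the other peaks of these pairs the −log10 q-value was between 4.12 and 12.7. Toward Rec8, Red1-only peaks without a Rec8 peak came as near as 100 bp to one, whereas Hop1-only peaks without a Rec8 peak were at least 962 bp away. These are the extremes only, and the medians were similar, at 2305 bp for Red1-only and 2117 bp for Hop1-only peaks.

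Most members had a peak of the other protein within a few kilobases. The median distance of Red1-only peaks to the nearest Hop1 peak was 1926 bp, with quartiles of 1139 and 3199 bp. For Hop1-only peaks and the nearest Red1 peak, the median was 1838 bp, with quartiles of 1204 and 3083 bp. Within 1000 bp of the other protein lay 28 of the 143 Red1-only peaks and 8 of the 73 Hop1-only peaks. Within 5000 bp lay 127 and 66, respectively, and all members lay within 10000 bp. With a peak counted as shared only where at least 50% of its width was covered, the medians were 1074 and 995 bp, over 223 Red1 and 131 Hop1 peaks.

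**Figure D1:**
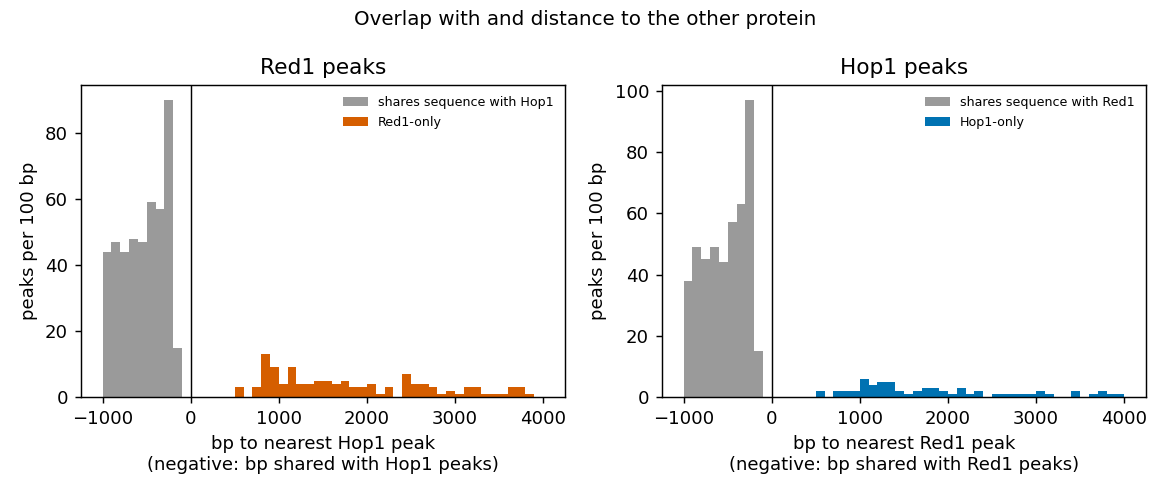
Number of Red1 peaks (left) and Hop1 peaks (right) per 100 bp of distance to the nearest peak of the other protein, with the shared base pairs of overlapping peaks drawn as negative values, shown from −1000 to 4000 bp. Coloured bars are members and grey bars are shared peaks, and the range from 114 bp of overlap to 506 bp of distance is empty in both lists. Peaks within a list were also never closer than 801 bp, so that this empty range is not shown to be particular to members.

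The most remote Red1-only peaks were those on chromosome IV from 714412 to 714824 (9095 bp from a Hop1 peak), chromosome II from 382262 to 382547 (8477 bp) and chromosome XVI from 413005 to 413335 (8016 bp). The latter 2 lay almost wholly in a Rec8 peak, whereas the nearest Rec8 peak was 9228 bp from the first. The most remote Hop1-only peaks lay on chromosome V from 22575 to 23295 (7845 bp from a Red1 peak), chromosome XII from 368013 to 368429 (7184 bp) and chromosome VII from 724019 to 725183 (6478 bp). Of each of these 3, at least 93.9% of the width was in a Rec8 peak. All 143 Red1-only peaks lay between 2 Hop1 peaks of their chromosome. They occupied 132 of the 1498 gaps between Hop1 peaks, of which 10 held several Red1-only peaks. The gaps they occupied had a median length of 7474 bp, compared with 4333 bp for all gaps. Of the Hop1-only peaks, 68 lay between 2 Red1 peaks, in 65 of 1555 gaps with a median length of 8831 bp, compared with 3910 bp for all gaps. A gap must be longer than the member it holds, and a long gap has more room for one. Longer occupied gaps are therefore expected from the choice of members in both groups.

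In their own list, members were close to the next peak. The nearest other Red1 peak was at a median of 1712 bp from Red1-only peaks and of 2421 bp from shared Red1 peaks. For Hop1, these distances were 1990 and 2548 bp. Peaks of one list never lay closer than 804 bp for Red1 or 801 bp for Hop1. The Red1 list held 12 adjacent pairs of Red1-only peaks (8.39% of 143, beside a share of 9.10% of all Red1 peaks), and the longest run was 3 peaks, on chromosome XV between 867843 and 876926. The Hop1 list held 4 adjacent pairs of Hop1-only peaks (5.48% of 73, beside 4.82% of all Hop1 peaks). Members thus followed each other about as often as their share of each list.

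Members were narrow. The median width was 400 bp for Red1-only peaks, with quartiles of 279 and 648 bp, compared with 1833 bp for shared Red1 peaks. Hop1-only peaks had a median width of 441 bp, with quartiles of 273 and 701 bp, compared with 1760 bp for shared Hop1 peaks. The median was 682 bp where a peak had to be covered by at least 50% to count as shared. At most 500 bp wide were 61.5% of Red1-only and 54.8% of Hop1-only peaks, but 10.2% and 12.3% of shared peaks. Members made up 2.15% of the sequence in Red1 peaks and 1.13% of that in Hop1 peaks.

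Few members exceeded 1000 bp, namely 19 Red1-only (13.3%) and 5 Hop1-only peaks (6.85%), compared with 69.2% of all Red1 and 69.4% of all Hop1 peaks. The widest Red1-only peaks lay on chromosome VIII from 176521 to 178444 (1924 bp), chromosome II from 235133 to 236923 (1791 bp) and chromosome XI from 380408 to 382164 (1757 bp). The first 2 were weak calls with fold enrichments of 1.15 and 1.09 and held no Red1 summit, whereas the third had a fold enrichment of 1.29 and a summit. The widest Hop1-only peaks were those on chromosome IV from 445436 to 447161 (1726 bp) and chromosome XV from 406421 to 408132 (1712 bp), which faced Red1-only peaks, and one on chromosome X from 581882 to 583161 (1280 bp). Their fold enrichments were 1.14, 1.09 and 1.09.

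Members were also weak calls. Fold enrichment is the authors' ratio of ChIP over input, averaged over each peak, and is compared only within a list. Its median was 1.18 for Red1-only peaks, with quartiles of 1.13 and 1.23, and 1.68 for shared Red1 peaks. For Hop1-only peaks it was 1.17, with quartiles of 1.11 and 1.23, and for shared Hop1 peaks 1.61. Of the Red1-only peaks, 134 of 143 were in the lowest 25% of the Red1 list, and of the Hop1-only peaks 65 of 73 were in the lowest 25% of the Hop1 list. Members were also weaker than shared peaks of like width. Among Red1 peaks of at most 658 bp, the narrowest of 5 equal classes, the median was 1.18 for Red1-only and 1.34 for shared peaks. Among Hop1 peaks of at most 678 bp, the medians were closer, at 1.19 for Hop1-only and 1.26 for shared peaks.

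**Figure D2:**
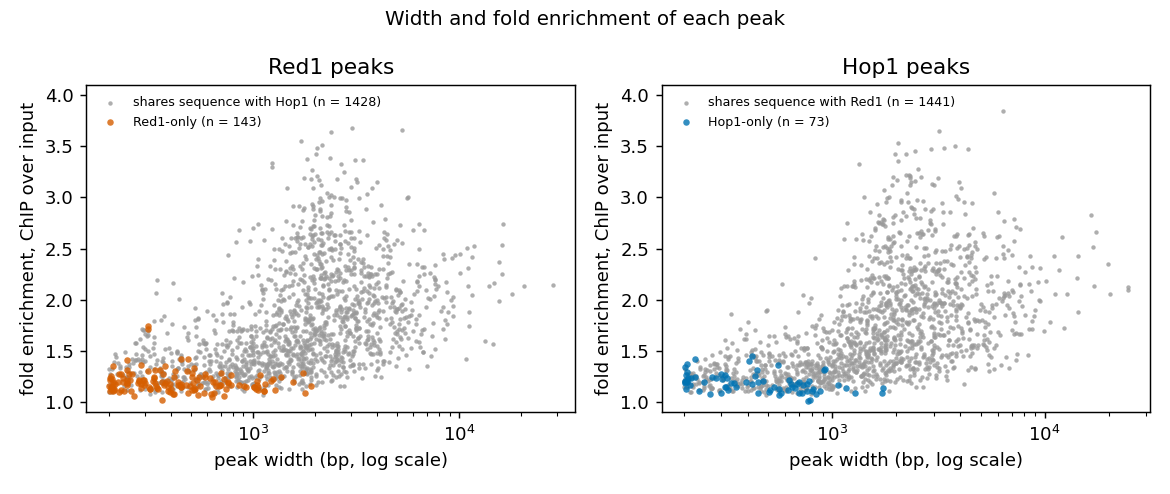
Width in bp (horizontal, log scale) and fold enrichment of ChIP over input (vertical) of every Red1 peak (left) and every Hop1 peak (right), 1 point per peak, coloured for members and grey for shared peaks. Members gather at the lower left, with medians of 400 bp and 1.18 for Red1-only and 441 bp and 1.17 for Hop1-only peaks, and a pair of Red1-only peaks stands above the others at 1.71 and 1.75.

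A pair of Red1-only peaks stood apart from this pattern. The peak on chromosome XV from 405349 to 405659 had a fold enrichment of 1.75 and a −log10 q-value of 187, and the peak on chromosome VIII from 58048 to 58358 had a fold enrichment of 1.71 and a −log10 q-value of 176.8. Both were 311 bp wide, and both ranked above the middle of the Red1 list, at the 59.2nd and the 57.3rd percentile. They were the only Red1-only peaks among the 785 Red1 peaks above the median fold enrichment, and 6 shared peaks in that upper part were as narrow. The nearest Hop1 peak was 761 bp away on chromosome XV, where it was the wide and weak Hop1-only peak described above, and 1887 bp away on chromosome VIII. The peak on chromosome XV had 180 of its 311 bp in a Rec8 peak, whereas the nearest Rec8 peak was 2271 bp from that on chromosome VIII. The Red1-only peak next in strength, on chromosome XI from 530616 to 531098, had a fold enrichment of 1.43 and a −log10 q-value of 62.6.

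No Hop1-only peak was above the median fold enrichment of its list. The strongest were on chromosome XII from 368013 to 368429 (fold enrichment 1.45, −log10 q-value 37.96), on chromosome V from 572710 to 572935 (1.42 and 42.2) and on chromosome XI from 314014 to 314417 (1.40 and 24.8). Each of these 3 peaks shared sequence with a Rec8 peak. In contrast to the Red1-only group, the strongest Hop1-only peaks did not stand apart from the next ones.

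The share of peaks without the other protein fell with the strength of the call, except between the second and the third class of Hop1 peaks. Among Red1 peaks with a −log10 q-value under 2, 9 of 11 were Red1-only. This share was 58.9% from 2 to 5, 46.5% from 5 to 10, 19.6% from 10 to 20, 5.28% from 20 to 50 and 0.310% (3 of 967 peaks) from 50 upward. Among Hop1 peaks it went from 9 of 14 under 2 to 20.7%, 22.3%, 5.63%, 2.79% and 0 of 836 over the same classes. At like q-value, the Red1-only share was larger in each class, although q-values depend on the depth of the libraries, which was not analysed here. Peaks of strong significance without the other protein were thus rare in both lists. A −log10 q-value of at least 5 was reached by 101 of the 143 Red1-only peaks (70.6%) and 46 of the 73 Hop1-only peaks (63.0%), compared with 95.7% of all Red1 and 93.3% of all Hop1 peaks.

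**Figure D3:**
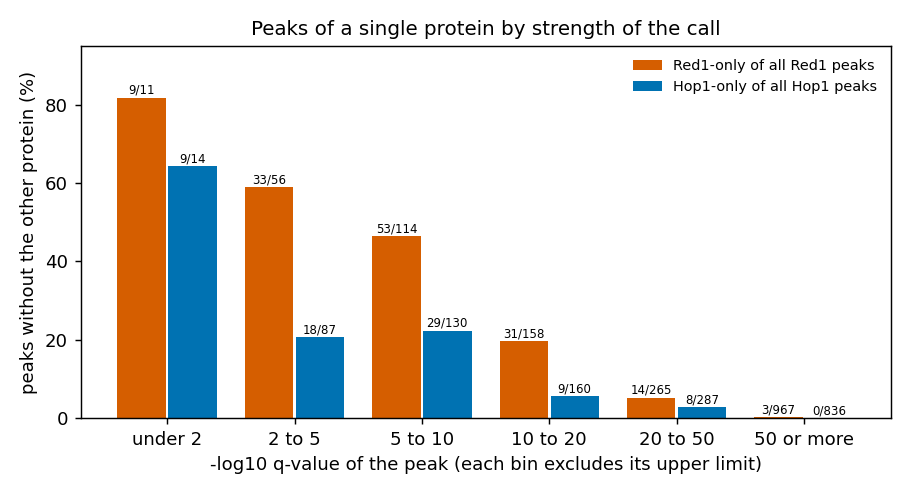
Share of Red1 peaks that were Red1-only and of Hop1 peaks that were Hop1-only (vertical, in %) by the −log10 q-value of the peak (horizontal, 6 classes), with the number of members over the number of peaks above each bar. The share drops from 9 of 11 and 9 of 14 peaks in the weakest class to 3 of 967 and 0 of 836 in the strongest.

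The overlap with Rec8 peaks was not used to choose the members. A Rec8 peak shared at least 1 bp with 49 Red1-only peaks (34.3%), compared with 86.3% of all Red1 peaks and 91.5% of shared Red1 peaks. Of the Hop1-only peaks, 33 (45.2%) shared sequence with a Rec8 peak, compared with 89.3% of all Hop1 peaks and 91.5% of shared Hop1 peaks. Thus, 94 Red1-only and 40 Hop1-only peaks were calls of a single axis protein. These counts have no replicate error, and the difference between the Red1-only and the Hop1-only share was not tested.

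Width and strength moved with this difference. Among Red1 peaks of at most 658 bp, 32 of 109 Red1-only peaks (29.4%) and 143 of 206 shared peaks (69.4%) shared sequence with a Rec8 peak. In the next class, from 660 to 1319 bp, the numbers were 15 of 29 (51.7%) and 250 of 285 (87.7%). For Hop1 peaks of at most 678 bp they were 24 of 52 Hop1-only (46.2%) and 178 of 251 shared peaks (70.9%), and from 680 to 1344 bp they were 7 of 19 (36.8%) and 251 of 284 (88.4%). The difference was therefore also present at like width in these classes, which hold all but 5 Red1-only and 2 Hop1-only peaks. These few wider members met a Rec8 peak in 2 of 5 and 2 of 2 cases. At like q-value, the difference was present for Red1 from 2 upward, as between 10 and 20, where 45.2% of Red1-only and 73.2% of shared peaks met a Rec8 peak. For Hop1 it was present from 5 upward, as between 10 and 20 with 3 of 9 Hop1-only and 78.8% of shared peaks, but not between 2 and 5, where 50.0% of Hop1-only and 49.3% of shared peaks met a Rec8 peak. Under 2, it was the other way round, with 2 of 9 Red1-only and 0 of 2 shared peaks, and 3 of 9 Hop1-only and 1 of 5 shared peaks.

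**Figure D4:**
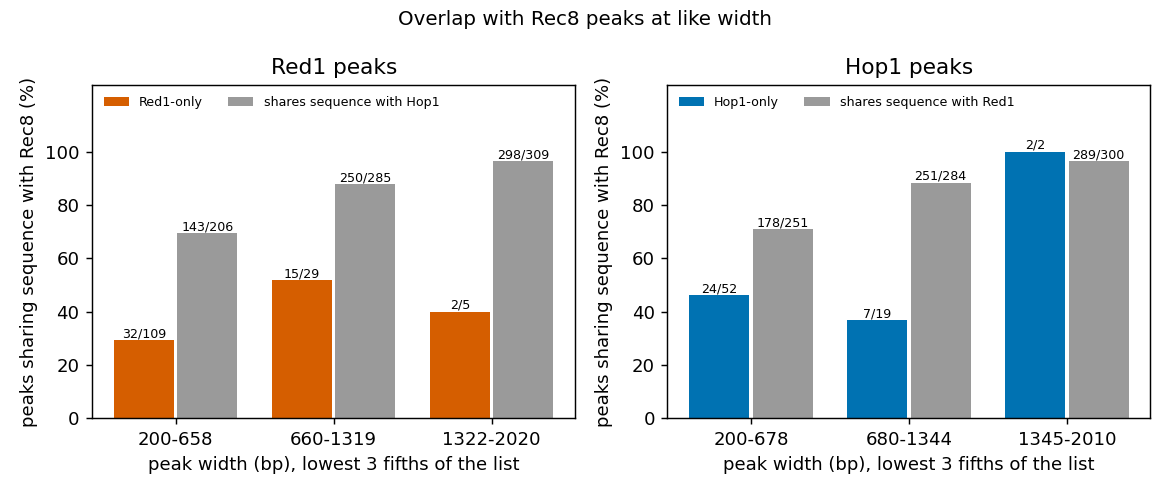
Share of peaks that shared sequence with a Rec8 peak (vertical, in %) in the 3 narrowest of 5 equal width classes of the Red1 list (left) and the Hop1 list (right), with coloured bars for members, grey bars for shared peaks and counts above the bars. In the narrowest class the share was 29.4% for Red1-only and 69.4% for shared Red1 peaks, and 46.2% for Hop1-only and 70.9% for shared Hop1 peaks, and the widest class shown holds only 5 Red1-only and 2 Hop1-only peaks.

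Where a member met a Rec8 peak, the larger part of its width was usually covered. At least 50% of the width was covered in 41 of 49 Red1-only and 29 of 33 Hop1-only peaks, and the whole width in 19 and 17, respectively. This coverage was not counted for shared peaks, which were wider, so that it is not shown to be particular to members. Members without a Rec8 peak were at a median of 2305 bp (Red1-only) and 2117 bp (Hop1-only) from the nearest one, compared with 2024 and 2034 bp for shared Red1 and Hop1 peaks that had none. Among Red1-only peaks, those at Rec8 peaks had medians of 520 bp in width and 1.20 in fold enrichment, and the others 389 bp and 1.17. For Hop1-only peaks the medians were 447 bp and 1.18 with, and 427 bp and 1.17 without a Rec8 peak. The median −log10 q-value was 9.71 with and 6.33 without a Rec8 peak for Red1-only peaks, and 5.97 and 5.73 for Hop1-only peaks. By their medians, Red1-only peaks at Rec8 peaks were thus wider, with larger −log10 q-values and slightly larger fold enrichment. Their lower quartile of width was smaller, however, at 250 bp compared with 288.5 bp. The Hop1-only medians were close to each other.

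The Rec8 peaks at members were themselves weak and narrow. This readout came from separate immunoprecipitations, but Rec8 fold enrichment was not compared at like width of the Rec8 peaks. The 49 Rec8 peaks that met Red1-only peaks had medians of 1.29 in Rec8 fold enrichment and 703 bp in width, and the 33 that met Hop1-only peaks had medians of 1.45 and 932 bp, compared with 1.63 and 1588 bp for all 1592 Rec8 peaks. Only 5 and 6 of them, respectively, exceeded the median of all Rec8 peaks. The 110 Rec8 peaks with neither a Red1 nor a Hop1 peak had a median of 1.27. Of the 49 Rec8 peaks, 40 met no Hop1 peak anywhere along their length, with medians of 1.27 in fold enrichment and 583 bp in width. The other 9 also met a Hop1 peak elsewhere, with medians of 1.65 and 4168 bp, and all 5 Rec8 peaks above the median were among them. A longer Rec8 peak has more room to meet a Hop1 peak as well, so that a difference in width is expected here. For Hop1-only peaks, 27 of the 33 Rec8 peaks met no Red1 peak, with medians of 1.40 in fold enrichment and 562 bp in width. Of these 27, 5 exceeded the median of all Rec8 peaks.

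In the Hop1-only group, 5 Rec8 peaks that met no Red1 peak were above the median of all Rec8 peaks. They are named here for their Rec8 values, which were seen beforehand. The Hop1-only peak on chromosome X from 447201 to 447403, only 203 bp wide with a fold enrichment of 1.34, lay inside a Rec8 peak from 446815 to 448425 with a Rec8 fold enrichment of 3.13, the 99.0th percentile of the Rec8 list. The nearest Red1 peak was 3875 bp away. On chromosome V, the Hop1-only peak from 170937 to 171465 lay inside a Rec8 peak from 163166 to 172152 with a Rec8 fold enrichment of 2.37, which no Red1 peak touched. The others met Hop1-only peaks on chromosome XI from 527 to 730 (Rec8 fold enrichment 1.89) and on chromosome XV from 321121 to 321420 (1.77) and from 335034 to 335651 (1.65). In the Red1-only group, each Rec8 peak above the median also met a Hop1 peak.

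The deposited Red1 summits, which come from the same Red1 libraries and have scores from 20.0 upward, gave a further view of the Red1-only peaks. Summits of lower score are not in this list, so that a weak peak can lack a listed summit for this reason. Of the 143 Red1-only peaks, 48 (33.6%) held a summit, compared with 89.0% of all Red1 peaks and 94.5% of shared ones. The share was 53.2% of 154 Red1-only peaks when peaks with a −log10 q-value under 5 were left out of all lists. No Red1-only peak held more than 1 summit, so that 48 of all 2385 summits (2.01%) were in Red1-only peaks. In the narrowest width class, 35.8% of Red1-only and 77.7% of shared peaks held a summit. The 48 summits had a median score of 33.3, with quartiles of 26.6 and 48.1, compared with 178 in the other Red1 peaks. Only 2 exceeded the median of all summits, 168.7, with scores of 413 on chromosome XV and 387 on chromosome VIII, in the pair of strong peaks described above. The next highest was 113, in the peak on chromosome XI from 530616 to 531098.

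Red1-only peaks with a summit were stronger but not wider than those without one. Their medians were 1.27 in fold enrichment and 15.3 in −log10 q-value, compared with 1.15 and 5.44. This difference in strength is only a description, since the summit list starts at a score of 20.0 in the same libraries. The median widths were 372 bp with and 412 bp without a summit. Both a summit and a Rec8 peak were present at 25 Red1-only peaks (17.5%), compared with 82.4% of all Red1 peaks. Neither was present at 71 Red1-only peaks (49.7%), compared with 7.13% of all Red1 peaks. No Hop1-only peak held a Red1 summit, compared with 89.7% of all Hop1 peaks. This follows from the choice of members, since all summits lie inside Red1 peaks.

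Some members of both groups faced each other, about as often as their shares of the lists. The nearest Hop1 peak was Hop1-only for 7 of 143 Red1-only peaks (4.90%), beside 4.82% of all Hop1 peaks, and the nearest Red1 peak was Red1-only for 7 of 73 Hop1-only peaks (9.59%), beside 9.10% of all Red1 peaks. At 6 places, a Red1-only and a Hop1-only peak were each other's nearest peak of the other protein, separated by 506 to 1532 bp with a median of 815 bp. Apart from the pairs on chromosomes VII, IV and XV named above, these lay on chromosome X (Red1-only from 41022 to 41496 and Hop1-only from 42366 to 42591, 869 bp apart) and at 2 places on chromosome XI (Red1-only from 142317 to 142764 and from 152600 to 153855, 1532 and 1399 bp from Hop1-only peaks). On chromosomes IV and XV, both members of the pair shared sequence with the same Rec8 peak. In the pair on chromosome X, neither met a Rec8 peak.

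Red1-only and Hop1-only peaks were spread over most chromosomes. Red1-only peaks were on 15 of the 16 chromosomes, most on VII (19 peaks), IV (18) and II (15), and Hop1-only peaks were also on 15, most on IV (9), XII (9) and XIII (7). As a share of the Red1 peaks of a chromosome, Red1-only peaks ranged from 0 of 24 on chromosome I and 4.62% on V to 12.5% on VII and 13.3% on II. Hop1-only peaks ranged from 0 of 29 on chromosome VI and 1.82% on IX to 8.33% (2 of 24) on I. Only on chromosomes I, V and XIII was the number of Hop1-only peaks larger than that of Red1-only peaks. On the 3 shortest chromosomes, I, III and VI, 6 of 92 Red1 peaks (6.52%) and 4 of 85 Hop1 peaks (4.71%) were members, compared with 9.26% and 4.83% on the other 13. The differences between chromosomes rest on few members and were not tested.

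**Figure D5:**
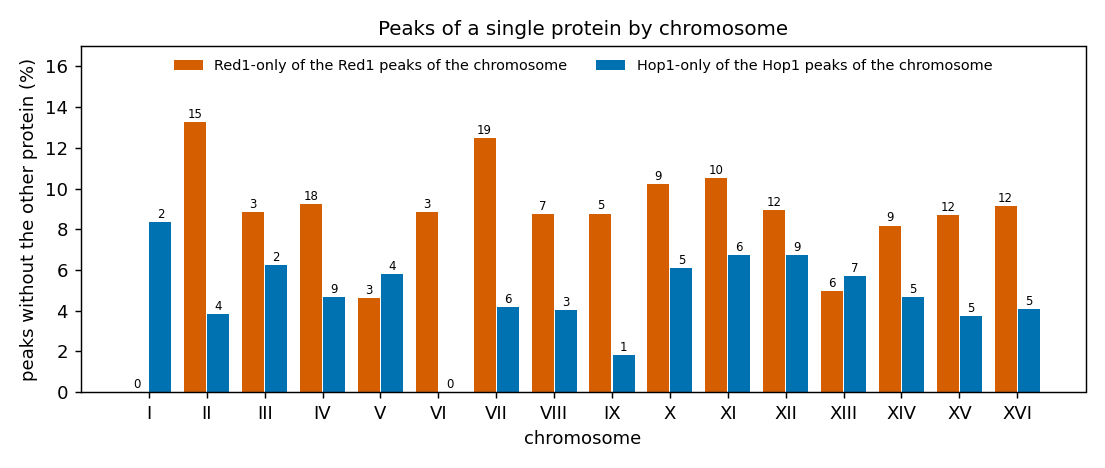
Red1-only peaks as a share of the Red1 peaks and Hop1-only peaks as a share of the Hop1 peaks of each of the 16 chromosomes (vertical, in %), with the number of members above each bar. Red1-only shares are highest on chromosomes II (13.3%) and VII (12.5%), whereas chromosome I has no Red1-only and chromosome VI no Hop1-only peak.

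The groups differed in how many members lay near the ends of chromosomes, counted within 20 kb of the first or the last interval in any list. There, 3 Red1-only peaks (2.098%) and 9 Hop1-only peaks (12.3%) were found, compared with 6.05% of all Red1 and 6.27% of all Hop1 peaks. Of the 9 Hop1-only peaks, 8 shared sequence with a Rec8 peak, as did 79 of 86 shared Hop1 peaks near ends (91.9%). Of these, 5 of the 9 Hop1-only peaks and 32 of the 86 shared peaks did not lie between 2 Red1 peaks. The outermost were on chromosome V from 572710 to 572935, which was itself the last interval of that chromosome, and on chromosome XI from 527 to 730, near the first interval of that chromosome. None of the 3 Red1-only peaks near ends met a Rec8 peak, compared with 80 of 92 shared Red1 peaks there (87.0%). Away from the ends, 25 of 64 Hop1-only peaks (39.1%) and 49 of 140 Red1-only peaks (35.0%) met a Rec8 peak. The ends are those of the outermost intervals and not the telomeres themselves, and the difference between the groups was not tested.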

How the data were processed

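The report used peak lists of ChIP-seq of Red1, Hop1 and Rec8 and a list of Red1 summits, all from wild-type cells. Of the 161 samples, 3 have contradictory labels and were not used. The authors mapped reads to the SK1 genome with Bowtie, kept perfect matches at 1 location each and extended reads to 200 bp. Likely PCR duplicates were discarded, and combined replicates were called in the broad mode of MACS2 2.1.1 (version per the submitters' processing notes). In the deposited lists the authors give a −log10 q-value and the fold enrichment over input, a ratio averaged over the peak. The deposited summit list gives a score whose kind is not given in the sources used here. Transcript levels were not used, since the genes have no positions.

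Peaks of 1 list were compared with those of another from 1 shared bp, and distances were counted between the nearest edges. Width classes divided each list into 5 parts of equal number. Chromosome ends were the first start and the last end in any list. Named peaks were the 3 members of each group with the highest fold enrichment, the largest width, the largest and the smallest distance to the other protein, the 3 shared peaks with the smallest overlap and the 3 highest summits. Members and measures were chosen with earlier results of these data known. No statistical test was run, because each list is a single call. The overlap and distance counts were tested on simulated data. Calculations used Python 3.11.15 with NumPy 2.4.6, pandas 2.3.3 and SciPy 1.17.1, and 8 alternatives of threshold, overlap and region were tried.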

Additional observations from a re-analysis of the deposited data

How the results depend on the processing

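For 9 results, 8 alternatives gave 72 values, of which 59 stayed within 1.5 times the number of peaks or within the 95% binomial interval of the reported share or median. Those intervals treat peaks as independent and do not hold replicate error. When a peak counted as shared only with at least 50% of its width covered, 223 Red1 and 131 Hop1 peaks were members and 48.9% of the Red1 members met a Rec8 peak, since partly covered peaks were then added. Their median widths were 588 and 682 bp, and their median distances to the other protein 1074 and 995 bp. Counting peaks within 1000 bp as shared gave a median distance of 2460 bp for Red1-only peaks. Without peaks under a −log10 q-value of 5 in all lists, 26.0% of 154 Red1-only peaks met a Rec8 peak, as weak Hop1 and Rec8 peaks were removed too. With only weak members left out, 46 Hop1-only peaks were counted. The share of Red1-only peaks holding a summit was 53.2%, 47.5% and 51.1% when weak peaks of all lists, only weak members, or peaks covered by less than 50% were handled as above, respectively. Counting peaks within 200 bp as shared, or joining peaks within 200 bp, changed no number, because no member was that close to the other protein and no peaks of a list were that close to each other. These alternatives therefore could not move any result, although all their values are counted among the 59. In all alternatives Red1-only peaks outnumbered Hop1-only peaks, by 1.70 to 2.75 times. Leaving out single replicates was not possible because each list combines them. No paired analysis was possible because each list combines its replicates. The unknown depth limits every statement on a missing peak.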
